A study of Homo sapiens with 12 samples.

Results

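The nuclear genes of respiratory complex I, its NDUF-named subunits and assembly factors, were followed in 2 inducible HEK293 lines. Their members were all genes whose symbol in the array annotation begins with NDUFA, NDUFB, NDUFC, NDUFS, NDUFV or NDUFAF, pseudogenes excluded. This gave 40 genes of the 18665 named on the array, 33 subunits and 7 assembly factors, measured by 53 of 48803 probes. A probe was tested where 3 or more of the 12 arrays gave it a detection p, from the negative control beads, under 0.01. That left 37 members (30 subunits and all 7 assembly factors) at 46 probes, among 10159 genes at 15444 probes in all. The 3 untested subunits, NDUFA5, NDUFS6 and NDUFB4, were detected on 0 arrays, so that nothing can be said of their change. The subunits encoded by mitochondrial DNA were not analysed here.

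HEK293 is a human embryonic kidney cell line. Each line carried a FLAG-tagged cDNA, of ALKBH4 in one and of ALKBH7 in the other, behind a tetracycline-inducible promoter at one genomic site of the Flp-In T-REx-293 host, and was expanded from single resistant colonies. With each line taken uninduced and induced there were 4 groups, of 3 samples and 3 Illumina HumanWG-6 v3 arrays each. All were kept in tetracycline-free serum with blasticidin-S and hygromycin B, and the induced cells received 2 µg/ml doxycycline 2 days before harvest. No doxycycline-treated line without a transgene was analysed, so within a line the drug and the transgene cannot be told apart. The samples are triplicates that are not stated to be separate cultures. The p-values then measure only the spread between them.

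Complex I is the entry point of electrons into the respiratory chain. Its matrix arm takes electrons from NADH at a flavin and passes them along iron-sulfur clusters to ubiquinone, and its membrane arm pumps protons. A set of core subunits does this chemistry, a larger set of accessory subunits surrounds and stabilizes it, and assembly factors help to build the modules without staying in the finished enzyme. ALKBH7 is a mitochondrial member of the AlkB family of dioxygenases, and ALKBH4 is another member of that family.

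In every array between 25.3% and 30.7% of probes were detected, and array medians lay at 45.6 to 61.6 in the ALKBH4 line and 98.9 to 121 in the ALKBH7 line before normalization. The epithelial markers KRT8, KRT18 and EPCAM were detected on 12 of 12 arrays and CDH1 on 11. The neuronal markers NEFL and INA were also detected on all 12, STMN2 on 5 and NEFM on 1. Of the fibroblast markers COL1A1 was detected on 11 arrays, COL3A1 on 1, and COL1A2, DCN and LUM on 0, as were the blood markers PTPRC, CD3E, LYZ and HBB and the liver markers ALB, APOA1 and TTR. The ALKBH7 probe was higher by 3.72 ± 0.17 (SE) on the log2 scale in the induced than in the uninduced ALKBH7 line. The ALKBH4 probe differed by -0.12 ± 0.20 in the ALKBH4 line. According to the study it anneals to a part of the transcript that the transgene lacks, so it checks no label.

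One library stood apart. Uninduced replicate 1 of the ALKBH7 line correlated over all 48803 probes, before normalization, with a mean r of 0.962 with the other arrays of its group and of 0.977 with the induced arrays of that line. The mean log2 intensity over the 30 subunits was 11.21 in this array, against 10.75 and 10.79 in uninduced replicates 2 and 3 and 11.23, 11.26 and 11.22 in induced replicates 1, 2 and 3. At the ALKBH7 probe this array read 9.66, beside 9.19 and 9.12 in uninduced replicates 2 and 3 and 12.88 to 13.32 in the induced arrays, so the transgene was at the uninduced level in it. It was the highest of the 3 uninduced arrays at 23 of 30 subunits and at 4910 of all 10159 genes. Over the 7 assembly factors the same means were 9.29, 9.25 and 9.30 uninduced and 9.37, 9.51 and 9.34 induced. There the array did not stand apart from the other uninduced ones. In the ALKBH4 line the subunit means were 10.85, 10.98 and 11.02 uninduced and 10.98, 10.997 and 10.95 induced.

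**Figure D1:**
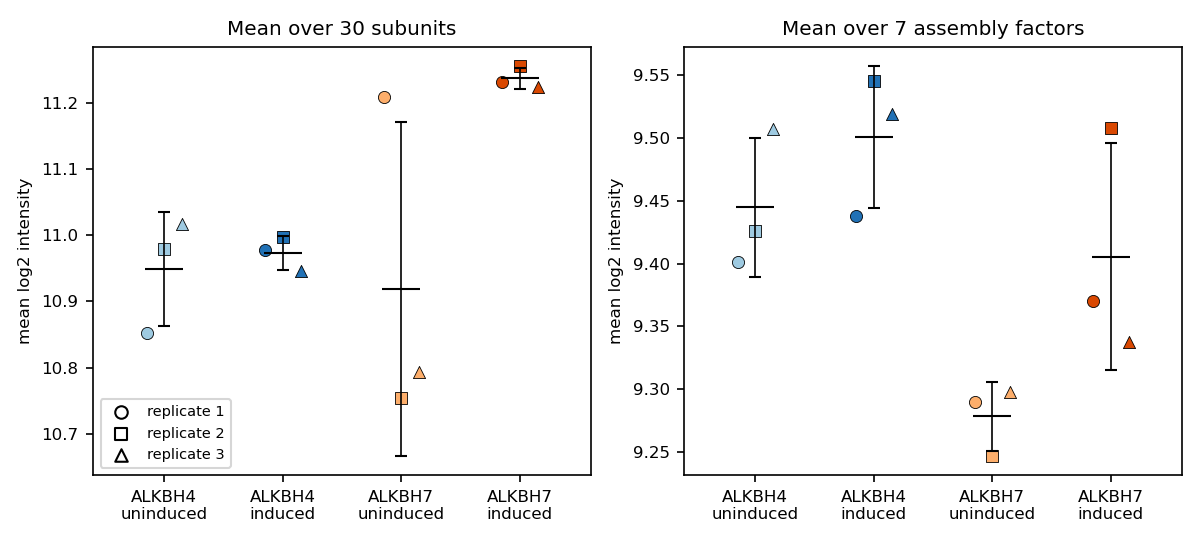
Mean log2 intensity (y axes, which do not start at 0) over the 30 tested subunits (left) and the 7 assembly factors (right) in each of the 12 arrays, with the group mean and SD as black bars. Uninduced replicate 1 of the ALKBH7 line lay at 11.21 for the subunits, close to the induced arrays (11.22 to 11.26), and at 9.29 for the assembly factors, between the other uninduced arrays.

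After induction of ALKBH7, 9 of 30 subunits were higher and 2 lower at a limma adjusted p under 0.05, and 19 did not pass. The 9 that rose were NDUFB10, NDUFB3, NDUFS5, NDUFA7, NDUFAB1, NDUFC1, NDUFA1, NDUFS3 and NDUFS1, and the 2 that fell were NDUFV3 and NDUFV1. The share of subunits that rose was 30%, beside 12.4% of all 10159 genes, and the share that fell was 6.67%, beside 10.4%. Subunit log2 fold changes ran from -0.46 to 1.19 with a median of 0.32, where the median of all genes was 0.05. Of the 30 values 26 were positive, beside 5586 of all 10159 genes. These values come from the same arrays and are not separate observations. None of the 7 assembly factors passed in either direction, and their log2 fold changes ran from -0.29 to 0.35 with a median of 0.27. Each gene stands for its brightest tested probe, and the fold change is induced minus uninduced on the log2 scale of quantile-normalized intensity. The SE and p of each probe rest on a spread shared by the 4 groups. The median SD of the subunits was 0.29 in the uninduced ALKBH7 arrays and 0.11 to 0.17 in the other groups. Where a group varies more than the others, a shared spread can make the SE and p too small. A lower level per cell and fewer cells that carry a transcript cannot be told apart in such bulk RNA.

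**Figure D2:**
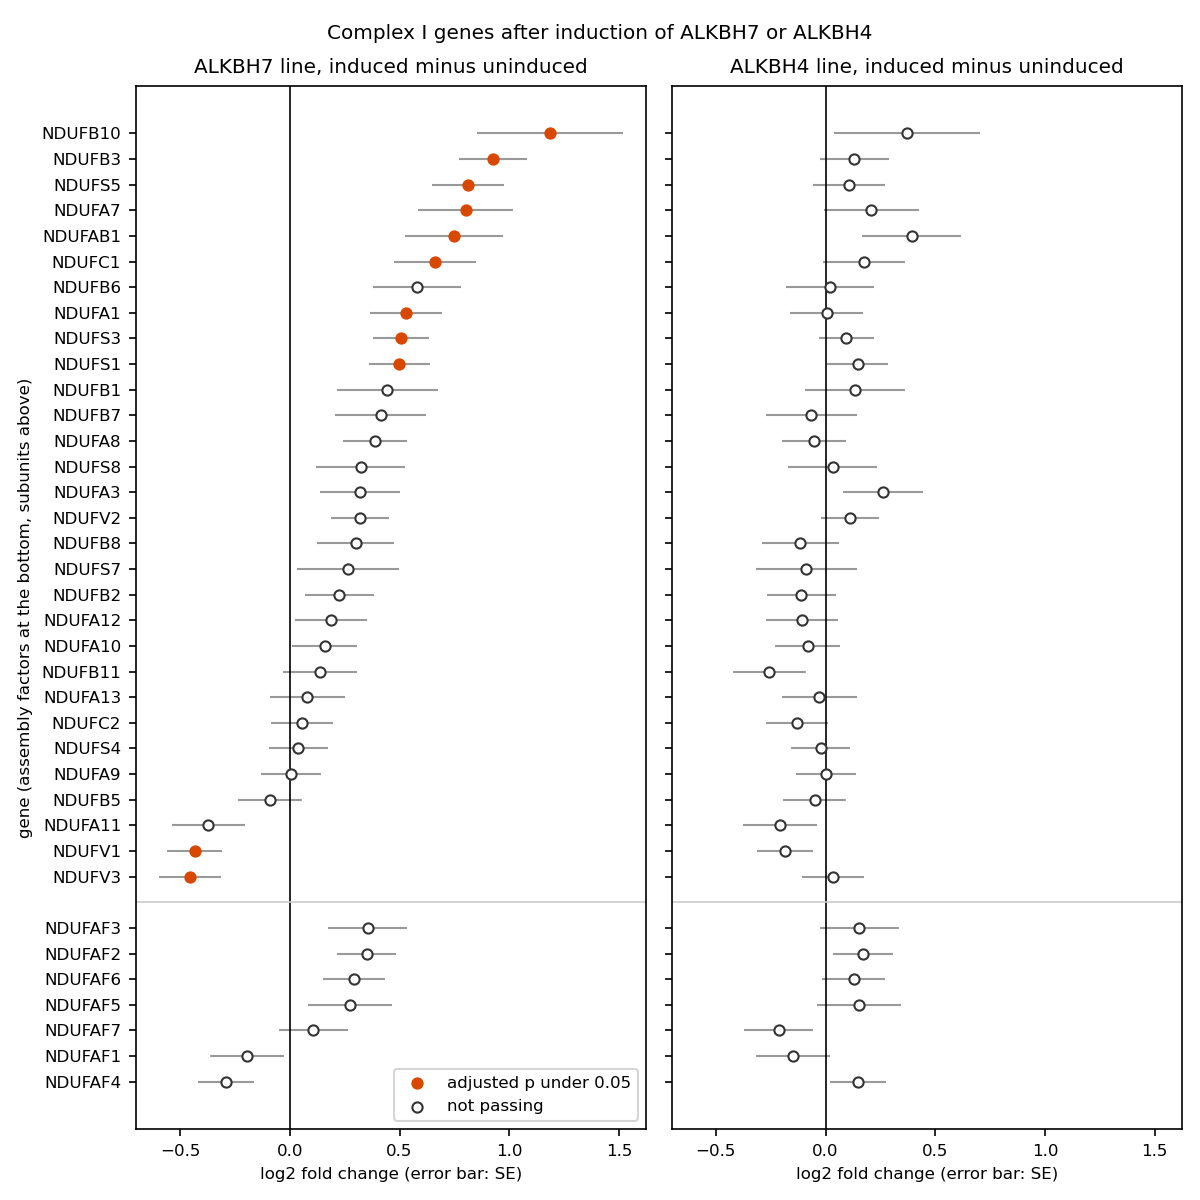
Log2 fold change (x axes) with its SE for the 37 tested complex I genes after induction of ALKBH7 (left) and of ALKBH4 (right), subunits above and assembly factors below, filled where the limma adjusted p was under 0.05. In the ALKBH7 line 26 of 30 subunits lay right of 0 and 11 passed, and in the ALKBH4 line 0 of 37 genes passed. Of all 10159 genes 5586 were positive in the ALKBH7 line.

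These counts moved with single libraries. Without uninduced replicate 1 of the ALKBH7 line 17 subunits were higher, beside 23.8% of all genes. Without uninduced replicates 2 or 3 the counts were 3 and 4, beside 5.7% and 7.44%. Leaving out induced replicates 1, 2 or 3 gave 2, 2 and 7, beside 4.82%, 3.78% and 10.1%. The number of calls over all genes thus moved with that of the subunits. The lower calls went to 0 without uninduced replicate 2 or induced replicates 1 or 2, beside 5.12%, 4.26% and 3.41% of all genes. They went to 1 without uninduced replicate 3, beside 5.39%. With all arrays 10.4% of all genes were lower. With uninduced replicates 2 and 3 both left out, so that replicate 1 was the only control, the subunit median was -0.01. In that fit the lone array is assumed to vary like the arrays of the other groups, so only effect sizes are given from it. Median scaling in place of quantile normalization gave 0 higher (0.00984% of all genes), and fitting the ALKBH7 line alone gave 2 (6.11%). A rank product after the methods of the study, with a change above 2-fold, was rerun on the normalized values used here. It called 1 subunit higher, NDUFB10, beside 0.945% of all genes. Over all tested probes it called 173 higher and 116 lower. The study reports more lower than higher genes, so its counts were not reproduced.

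**Figure D3:**
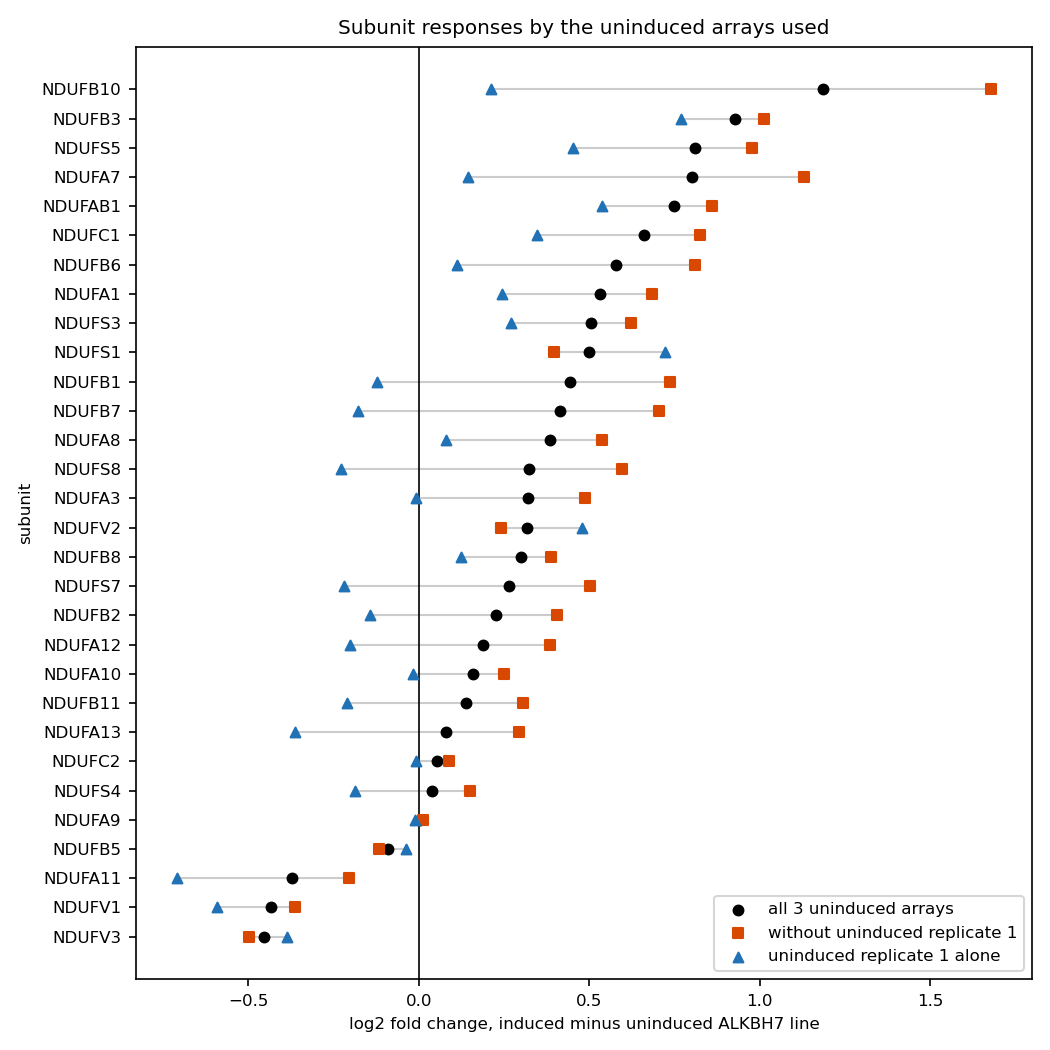
Log2 fold change of each of the 30 subunits in the ALKBH7 line (x axis) with all 3 uninduced arrays (circles), without uninduced replicate 1 (squares) and with uninduced replicate 1 as the only control (triangles). NDUFB3 stayed between 0.77 and 1.01, while NDUFB10 went from 0.21 to 1.68.

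Of the 9 rises, those of NDUFB3 and NDUFS5 lost their calls least often. NDUFB3, a small single-span accessory subunit of the membrane arm, stood at 11.55, 11.29 and 11.27 in uninduced replicates 1, 2 and 3 of the ALKBH7 line and at 12.30, 12.50 and 12.10 in the induced replicates. Every induced array lay above every uninduced one, including uninduced replicate 1. The log2 fold change was 0.93 ± 0.16 (SE, n = 3 per group; limma adjusted p = 0.00257), a 1.9-fold rise. A further NDUFB3 probe gave 11.07, 10.67 and 10.72 uninduced and 11.82, 11.997 and 11.66 induced, a log2 fold change of 1.00 ± 0.15 (adjusted p = 0.00149). Both probes of this gene therefore moved alike. With uninduced replicate 1 as the only control the change of NDUFB3 was 0.77.

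NDUFS5, an accessory subunit on the intermembrane-space side of the membrane arm, stood at 13.02, 12.47 and 12.49 uninduced and at 13.50, 13.59 and 13.31 induced in the ALKBH7 line. Again the groups did not overlap, and the log2 fold change was 0.81 ± 0.16 (adjusted p = 0.00539), 1.75-fold. The calls of NDUFB3 and NDUFS5 held in each of the 12 fits that left out 1 array. Of the 11 other settings of normalization, filter and model, median scaling lost both, and the rank product called neither. With uninduced replicate 1 as the only control NDUFS5 stood at 0.45. RefSeq lists 5 pseudogenes of NDUFB3 and 7 of NDUFS5, and whether the probes also match these copies was not tested.

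The other subunits that rose had an uninduced replicate 1 near the induced arrays in several cases. NDUFB10, an accessory subunit of the membrane arm with paired cysteines, stood at 10.89, 9.32 and 9.53 uninduced and at 11.21, 10.99 and 11.10 induced. Its log2 fold change of 1.19 ± 0.33 (adjusted p = 0.0224) was the highest of the subunits, with an SD of 0.86 among the uninduced arrays. NDUFA7, an accessory subunit of the matrix arm, read 11.18, 10.26 and 10.11 uninduced and 11.34, 11.31 and 11.31 induced. For both genes replicates 2 and 3 lay far below replicate 1, and with replicate 1 as the only control the changes were 0.21 and 0.14. The log2 fold change of NDUFA7 over all arrays was 0.80 ± 0.21 (adjusted p = 0.0186). Each of these calls was lost in 4 of the 12 fits without 1 array.

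NDUFAB1, the mitochondrial acyl carrier protein, which also serves fatty acid synthesis and iron-sulfur cluster formation, stood at 10.93, 10.20 and 10.99 uninduced and at 11.46, 11.55 and 11.36 induced. Here it was replicate 2 that lay low, and the log2 fold change was 0.75 ± 0.22 (adjusted p = 0.0292). NDUFC1, a small membrane-arm subunit, read 9.80, 9.32 and 9.32 uninduced and 10.17, 10.35 and 9.91 induced, a change of 0.66 ± 0.19 (adjusted p = 0.0233). NDUFA1, a small X-linked membrane-arm subunit needed for assembly, read 13.77, 13.18 and 13.50 uninduced and 14.02, 14.06 and 13.96 induced, a change of 0.53 ± 0.17 (adjusted p = 0.0343). In all of these the groups did not overlap. The calls of NDUFAB1, NDUFC1 and NDUFA1 were lost in 3, 4 and 5 of the 12 fits without 1 array.

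Among the core subunits, NDUFS3, which joins the quinone-binding module, stood at 11.62, 11.15 and 11.35 uninduced and at 11.88, 11.85 and 11.90 induced, a log2 fold change of 0.50 ± 0.13 (adjusted p = 0.0143). NDUFS1, the large iron-sulfur subunit of the NADH-oxidizing module, read 6.32, 6.74 and 6.60 uninduced and 6.99, 7.05 and 7.12 induced, a change of 0.50 ± 0.14 (adjusted p = 0.0221). NDUFS1 was detected on 9 of 12 arrays and so lay close to background. Uninduced replicates 1 and 3 of the ALKBH7 line were among the arrays that did not detect it, so the size of its change is uncertain. It was one of 4 subunits at which uninduced replicate 1 was the lowest array of its group. The calls of NDUFS3 and NDUFS1 were lost in 3 and 4 of the 12 fits without 1 array.

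Of the subunits that fell, NDUFV1, the core subunit that binds NADH and the flavin, stood at 11.28, 11.12 and 11.01 uninduced and at 10.68, 10.66 and 10.76 induced. All induced arrays were lower, by 0.43 ± 0.13 on the log2 scale (log2 fold change -0.43, adjusted p = 0.0265). NDUFV3, a small accessory subunit beside it, read 8.12, 8.14 and 8.32 uninduced and 7.67, 7.57 and 7.99 induced, a change of -0.46 ± 0.14 (adjusted p = 0.0337). A dimmer NDUFV3 probe, detected on 5 arrays, gave -0.01 ± 0.18 (adjusted p = 0.975), so the fall was seen at 1 of 2 probes. The calls of NDUFV1 and NDUFV3 were lost in 3 and 4 of the 12 fits without 1 array. Of the other subunits of the NADH-oxidizing module, NDUFS1 rose and NDUFV2 had a positive value of 0.32 ± 0.13 (adjusted p = 0.093).

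**Figure D4:**
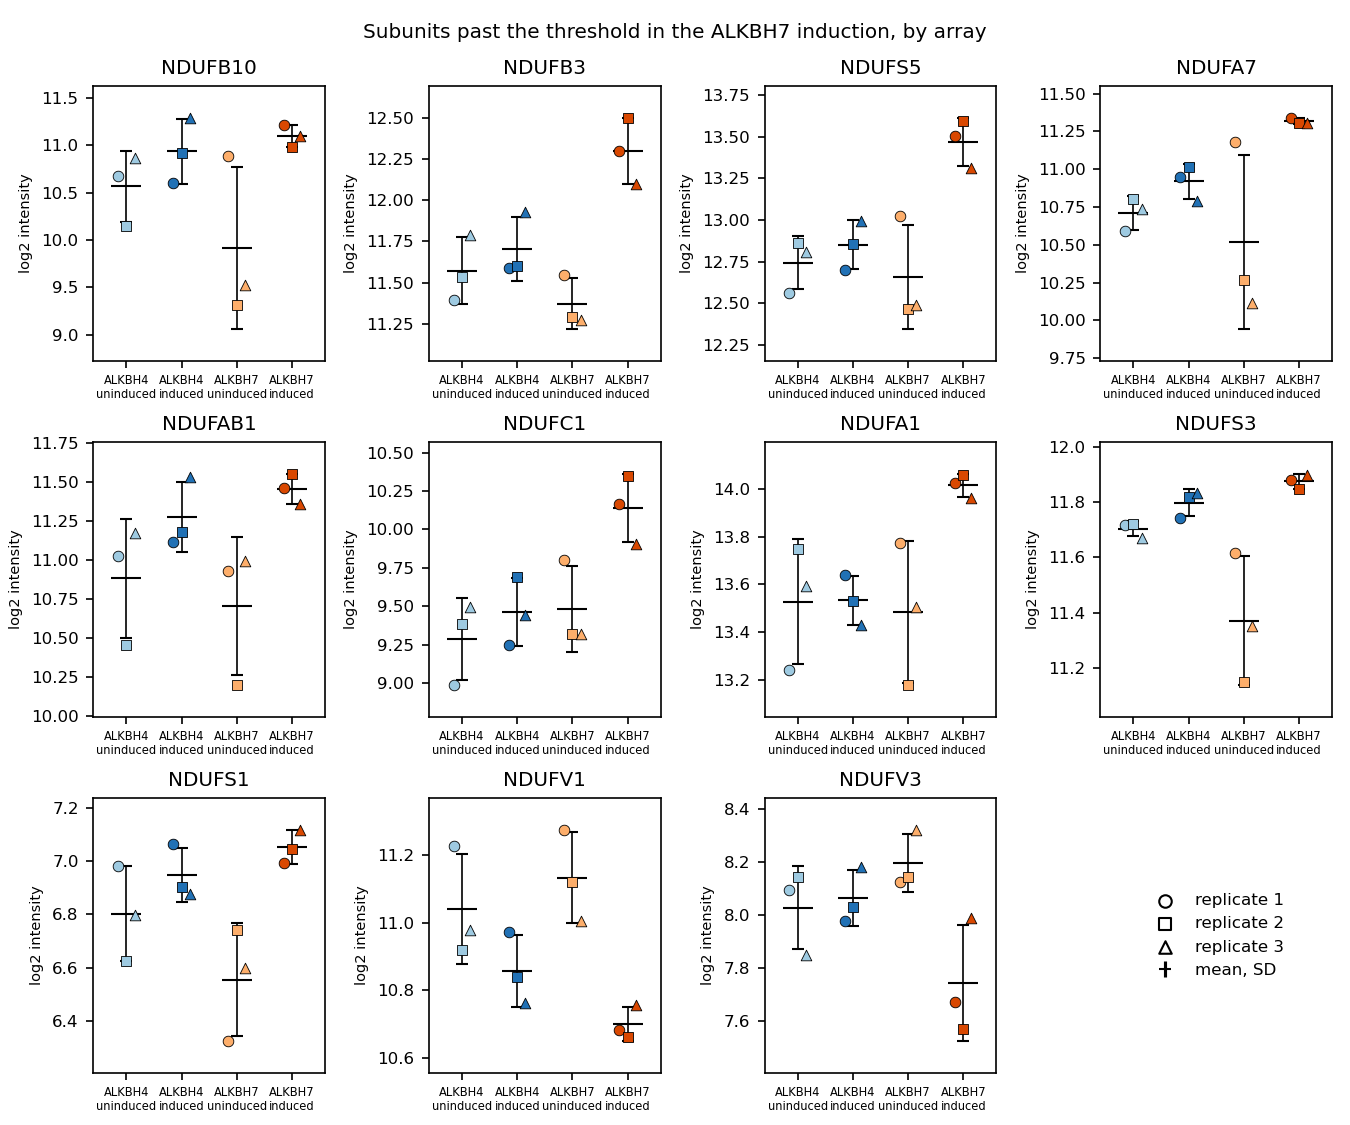
Log2 intensity (y axes, not starting at 0, a scale of its own for each gene) in all 12 arrays for the 9 subunits that rose and the 2 that fell after ALKBH7 induction, with the mean and SD of each group as black bars. The induced arrays of the ALKBH7 line lay wholly above the uninduced ones for the first 9 genes and wholly below for NDUFV1 and NDUFV3, while uninduced replicate 1 (light orange circle) was the highest uninduced array for 7 of the 9.

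Over all tested subunits the induced arrays of the ALKBH7 line lay wholly above the uninduced ones at 10 of 30 genes, beside 20.6% of all genes, and wholly below at 3, beside 15.1%. The non-overlapping genes outside the called ones were NDUFA8, a cysteine-rich subunit of the intermembrane-space side, at 0.39 ± 0.15 (adjusted p = 0.0691), and NDUFA11, a membrane-arm subunit, at -0.37 ± 0.17 (adjusted p = 0.119). NDUFB6, a membrane-arm subunit, missed the threshold narrowly at 0.58 ± 0.20 (adjusted p = 0.0519), with 0.68 ± 0.26 (adjusted p = 0.0751) at its other probe. Of the remaining subunits that did not pass, NDUFB1, NDUFB7, NDUFS8, NDUFA3, NDUFB8, NDUFS7, NDUFB2, NDUFA12, NDUFA10, NDUFB11, NDUFA13, NDUFC2, NDUFS4 and NDUFA9 had values between 0.00 and 0.44, and NDUFB5 stood at -0.09. NDUFC2 was detected on 6 arrays, none of them in the ALKBH7 line, so its value there is between undetected readings.

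The probes of NDUFA10, a membrane-arm subunit related to nucleoside kinases, disagreed. The brightest read 8.37, 8.22 and 7.99 uninduced and 8.41, 8.12 and 8.53 induced, a log2 fold change of 0.16 ± 0.15 (adjusted p = 0.453). The other read 7.97, 8.06 and 8.18 uninduced and 7.49, 7.34 and 7.68 induced, a change of -0.57 ± 0.16 (adjusted p = 0.0251). The gene counts above use the former, so a fall at the latter is not in them.

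By place in the enzyme, 2 of 6 tested core subunits rose and 1 fell, with a median log2 fold change of 0.32. Over all genes 12.4% rose and 10.4% fell. Among accessory subunits of the matrix arm 2 of 6 rose and 1 fell (median 0.11), and among those of the membrane arm 5 of 18 rose and 0 fell (median 0.35). These groups are too small and too unlike in their probes for an order to be read from the medians, and no test between them was made.

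No assembly factor passed the test. NDUFAF2, a paralog of the subunit NDUFA12 that binds a late assembly intermediate, stood at 11.43, 11.07 and 11.31 uninduced and at 11.54, 11.80 and 11.52 induced in the ALKBH7 line. The groups did not overlap, with a log2 fold change of 0.35 ± 0.14 (adjusted p = 0.0743). NDUFAF3, which works with NDUFAF4 on the quinone-binding module, read 12.59, 12.08 and 11.95 uninduced and 12.57, 12.62 and 12.51 induced. Here uninduced replicate 1 lay among the induced arrays, and the change was 0.35 ± 0.18 (adjusted p = 0.163), with 0.29 ± 0.14 at a dimmer probe. NDUFAF4 itself read 8.89, 9.04 and 8.66 uninduced and 8.45, 8.71 and 8.57 induced, a change of -0.29 ± 0.13 (adjusted p = 0.109), with 0.03 ± 0.16 at its other probe. That probe, detected on 6 arrays, read 6.31 to 6.39 in this line, close to background. Without uninduced replicate 1, 2 of the 7 were higher, beside 23.8% of all genes. These were NDUFAF2 at 0.43 (adjusted p = 0.0194) and NDUFAF3 at 0.55 (adjusted p = 0.0116).

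NDUFAF6, an early assembly factor, stood at 7.37, 7.36 and 7.53 uninduced and 7.66, 7.77 and 7.70 induced, without overlap, a change of 0.29 ± 0.14 (adjusted p = 0.147). NDUFAF5, which hydroxylates an arginine of the core subunit NDUFS7, read 8.47, 8.10 and 8.60 uninduced and 8.75, 8.84 and 8.41 induced, a change of 0.27 ± 0.19 (adjusted p = 0.306), with 0.30 ± 0.14 at its other probe. NDUFAF1, a member of the assembly complex that builds the membrane arm, read 7.92, 8.39 and 8.17 uninduced and 7.83, 7.93 and 8.13 induced, a change of -0.20 ± 0.17 (adjusted p = 0.419). NDUFAF7, an arginine methyltransferase of mitochondria, read 8.35, 8.69 and 8.87 uninduced and 8.80, 8.89 and 8.54 induced, a change of 0.11 ± 0.16 (adjusted p = 0.647). Its further probes, detected on 8 and 5 arrays, gave -0.58 ± 0.24 (adjusted p = 0.0892) and 0.38 ± 0.13 (adjusted p = 0.052). The former read 6.34, 7.43 and 7.42 uninduced and 6.50, 6.42 and 6.56 induced. Its value thus rests on uninduced replicates 2 and 3 against readings near background. The 3 probes of this gene did not share a direction, but the further ones lay near background, so the disagreement is uncertain.

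Set side by side, the medians of subunits (0.32) and assembly factors (0.27) lay within the range of either class. Under cyclic loess they were 0.32 and 0.16, and under median scaling 0.68 and 0.25. At quantile normalization the classes differed in their counts of calls, 11 of 30 against 0 of 7. With 7 assembly factors this difference was not tested. Of all genes 12.4% were higher and 10.4% lower, and of 14 assembly factors with other names 4 rose and 2 fell. Non-overlap of the groups was found at 2 of 7 assembly factors above (NDUFAF2 and NDUFAF6) and 0 below. Over all genes the shares were 20.6% and 15.1%.

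Of 14 tested assembly factors of complex I with other names, 4 rose and 2 fell in the ALKBH7 line, with a median log2 fold change of 0.15. Their shares of 28.6% and 14.3% stood beside 12.4% and 10.4% of all genes. NUBPL, which delivers iron-sulfur clusters to the enzyme, rose by 0.78 ± 0.18 (adjusted p = 0.00851), TMEM126B, a partner of NDUFAF1, by 0.64 (adjusted p = 0.0145), FOXRED1 by 0.54 (adjusted p = 0.0362) and TMEM70 by 0.52 (adjusted p = 0.0339). TMEM186, another partner of NDUFAF1, stood at -0.46 (adjusted p = 0.0331) and the insertase OXA1L at -0.40 (adjusted p = 0.0397). Among 11 tested regulators of mitochondrial biogenesis 2 rose and 1 fell, with a median of -0.05, shares of 18.2% and 9.09% that lay near those of all genes. The former were the coactivator PPARGC1B (0.50, adjusted p = 0.0171) and the transcription factor YY1 (0.72, adjusted p = 0.0124). The latter was GABPA, the DNA-binding part of an ETS-family factor. It read 9.08 and 8.89 in uninduced replicates 2 and 3 and was not detected in uninduced replicate 1 or in any of the 3 induced arrays, so that no fold is given.

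The nuclear subunits of complexes II to V gave a picture close to that of complex I. Of 36 tested, 10 were higher and 1 lower, with a median of 0.26. These shares of 27.8% and 2.78% stood beside 12.4% and 10.4% of all genes. UQCRB of complex III (1.40, adjusted p = 0.00131) and COX7B of complex IV (1.34, adjusted p = 0.0196) were the highest, and ATP5F1D of complex V was the one that fell (-0.58, adjusted p = 0.0243). COXFA4, which the older literature counted to complex I as NDUFA4 and which is now placed with complex IV, rose by 0.88 (adjusted p = 0.00325). These genes share the arrays of the members, uninduced replicate 1 included.

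Promoter sequence of the members was described from the RefSeq windows of GRCh38.p14, which span 250 bases before to 50 bases after the start site. Windows were matched by gene identifier for 36 of 40 members. Searched on both strands were GCGCATGC, the core letters of the NRF1 site, CCGGAAG, of ETS-family factors such as GABPA, and AAGATGGCG, of YY1. None of these strings contains another, though a match of the ETS letters and one of the YY1 letters can share their end and start. The NRF1 letters were in 6 of 36 member windows (16.7%) and in 3.27% of all 27305 windows (4.26% of the 15842 of protein-coding genes). The ETS letters were in 6 (16.7%), beside 10.7% and 14.2%, and the YY1 letters in 4 (11.1%), beside 1.85% and 2.74%. Every YY1 match (NDUFA7, NDUFA9, NDUFS4 and NDUFS7) and the NRF1 match of NDUFAF4 lay after the start site, not upstream. The share with ETS letters thus lay near that of protein-coding genes. Among the 8 matched subunits that rose after ALKBH7 induction, 0 held the NRF1 letters, 3 the ETS letters (NDUFA1, NDUFS1 and NDUFS3) and 1 the YY1 letters (NDUFA7). Among 17 matched subunits that did not pass, the numbers were 2, 2 and 3, and neither of the 2 that fell held any. Below are the 120 bases before the start site, 5′ to 3′ on the strand of the gene, for the highest risers NDUFB10 and NDUFB3, for the risers NDUFA1 and NDUFS3 with ETS letters, for NDUFS7, a core iron-sulfur subunit that did not pass and holds NRF1 letters, and for NDUFV1, which fell. Capitals mark the letters searched for.
NDUFB10 (chr16:1959418-1959537, plus strand): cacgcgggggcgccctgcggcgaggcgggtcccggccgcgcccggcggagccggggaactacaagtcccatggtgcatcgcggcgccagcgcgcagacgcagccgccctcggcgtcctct
NDUFB3 (chr2:201071881-201072000, plus strand): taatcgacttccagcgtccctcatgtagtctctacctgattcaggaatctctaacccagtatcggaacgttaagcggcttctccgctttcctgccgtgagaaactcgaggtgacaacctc
NDUFA1 (chrX:119871712-119871831, plus strand): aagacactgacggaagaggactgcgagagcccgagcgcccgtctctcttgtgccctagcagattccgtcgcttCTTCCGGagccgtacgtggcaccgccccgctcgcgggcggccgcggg
NDUFS3 (chr11:47578954-47579073, plus strand): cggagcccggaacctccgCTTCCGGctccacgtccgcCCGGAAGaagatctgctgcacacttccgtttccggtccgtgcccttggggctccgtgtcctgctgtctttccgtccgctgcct
NDUFS7 (chr19:1383787-1383906, plus strand): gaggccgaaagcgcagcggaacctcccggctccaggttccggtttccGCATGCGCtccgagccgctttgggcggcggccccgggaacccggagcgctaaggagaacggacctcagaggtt
NDUFV1 (chr11:67606816-67606935, plus strand): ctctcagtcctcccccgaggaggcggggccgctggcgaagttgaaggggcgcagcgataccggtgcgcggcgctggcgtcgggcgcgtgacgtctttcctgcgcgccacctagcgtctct
NDUFS3 held the ETS letters at 2 places, once on each strand, NDUFA1 once at 47 bases and NDUFS7 the NRF1 letters once at 73 bases before the start. The stretches of NDUFB10, NDUFB3 and NDUFV1 held none of the 3 strings in these bases. A match of letters is a description and shows no binding.

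Induction of ALKBH4 moved no complex I gene past the threshold. None of 30 subunits and none of 7 assembly factors passed in either direction by limma, as for all 10159 genes, of which 0% were called higher and 0% lower. At an unadjusted p under 0.05 there were 0 members and 248 genes in all. The rank product of the methods called 0 members in this line as well. Subunit log2 fold changes ran from -0.26 to 0.39 with a median of 0.00, and those of assembly factors from -0.21 to 0.17 with a median of 0.15. All genes had a median of 0.01. The arrays of the groups lay apart at 2 of 37 members above, NDUFS3 and NDUFAF4 (4.87% of all genes), and at 1 below, NDUFC2 (4.94%).

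By moderated t the members highest in the ALKBH4 induction were NDUFAB1 and NDUFA3. NDUFAB1 read 11.03, 10.45 and 11.18 uninduced and 11.12, 11.18 and 11.54 induced, a log2 fold change of 0.39 ± 0.22 (adjusted p = 0.999). NDUFA3, a small membrane-arm subunit, read 11.46, 11.99 and 11.99 uninduced and 12.09, 12.25 and 11.87 induced, a change of 0.26 ± 0.18. Lowest were NDUFB11, an X-linked membrane-arm subunit, with 12.50, 13.07 and 12.88 uninduced and 12.59, 12.50 and 12.59 induced (-0.26 ± 0.17), and NDUFV1, with 11.23, 10.92 and 10.98 uninduced and 10.97, 10.84 and 10.76 induced (-0.18 ± 0.13). In each of the 4 the groups overlapped.

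Whether a member responded differently in the lines was tested by the interaction, the ALKBH7 response minus the ALKBH4 response. Over all genes 0.0394% were called higher and 0.00984% lower in this test. No member was among them, and 6 of 37 (16.2%) had an unadjusted p under 0.05, beside 16.4% of all genes. Nearest to the threshold were NDUFB3, with a difference of 0.79 ± 0.22 (adjusted p = 0.11; 0.92 with adjusted p = 0.0701 at its other probe), and NDUFS5, with 0.70 ± 0.23 (adjusted p = 0.158). The subunit median was 0.34 and that of assembly factors 0.16. So the calls in the ALKBH7 line were not shown to differ from the values in the ALKBH4 line. Without uninduced replicate 1 of the ALKBH7 line 10 subunits were higher in this test, and so were 10.2% of all genes.

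The uninduced lines differed at several members. In the uninduced ALKBH7 line 5 of 30 subunits were higher and 3 lower than in the uninduced ALKBH4 line, and of the assembly factors 1 was higher and 2 lower. Over all genes 21.7% were called higher and 17% lower. The shares for subunits were 16.7% and 10%, not above those of all genes. Non-overlap was found at 5 subunits above and 5 below, beside 25.1% and 18.6% of all genes. The subunit median was -0.14 and that of assembly factors -0.22. Line and array scale move together here, as the array medians above show, and their parts cannot be told apart. The ALKBH7 probe was already higher by 1.52 ± 0.17 (adjusted p = 5.21e-05) in the uninduced ALKBH7 line, so that uninduced does not mean the same ALKBH7 level in the lines. This comparison and the ALKBH7 induction share the uninduced ALKBH7 arrays.

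NDUFB1, a small membrane-arm subunit, was the highest, with 8.43, 7.67 and 7.49 in the uninduced ALKBH7 line and 6.69, 7.38 and 7.03 in the uninduced ALKBH4 line, a log2 difference of 0.83 ± 0.23 (adjusted p = 0.0126). NDUFAF2, with 11.43, 11.07 and 11.31 against 10.45, 10.59 and 10.73, differed by 0.68 ± 0.14 (adjusted p = 0.00204). NDUFA13, also known as GRIM-19, a subunit at the junction of the arms with a described role in cell death, read 11.87, 11.27 and 11.19 against 10.69, 10.85 and 10.997, a difference of 0.60 ± 0.17 (adjusted p = 0.0144). The other subunits that were higher were NDUFB2 (0.60), NDUFV2 (0.59) and NDUFS4 (0.47), an accessory subunit that stabilizes the NADH module.

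On the lower side NDUFA9, an accessory subunit that binds a nucleotide near the quinone site, read 10.42, 10.49 and 10.31 in the uninduced ALKBH7 line and 11.43, 11.15 and 11.09 in the uninduced ALKBH4 line. The difference was -0.82 ± 0.14 (adjusted p = 0.000695), the lowest of the members. NDUFAF7 read 8.35, 8.69 and 8.87 against 9.46, 9.27 and 9.09 (-0.63 ± 0.16, adjusted p = 0.00721), with -0.72 (adjusted p = 0.0285) and 0.06 (adjusted p = 0.741) at its other probes, detected on 8 and 5 arrays. NDUFA8 read 11.68, 11.22 and 11.22 against 11.94, 12.14 and 11.87 (-0.62 ± 0.15, adjusted p = 0.00574). In each of these the groups did not overlap. NDUFAF5 (-0.58, with -0.41 at its other probe) and NDUFC2 (-0.41) were lower as well. NDUFC2, among the 3 lower subunits counted above, was detected on 6 arrays, all in the ALKBH4 line. It passed the filter through these only, and its value sets faint signal against undetected readings. The further probe of NDUFAF4, detected on 6 arrays, gave -0.67 (adjusted p = 0.00603), where its brightest gave -0.22 (adjusted p = 0.183). That further probe read 6.39, 6.34 and 6.31 in the uninduced ALKBH7 line, close to background. In the uninduced ALKBH4 line it read 7.21, 6.73 and 7.11, so its value sets faint signal against readings near background. The probes of NDUFAF3 gave 0.15 and 0.12. Among subunits, the further probes of NDUFA10 (-0.60, adjusted p = 0.0119) and NDUFB3 (-0.43, adjusted p = 0.0342) were lower too. Their brightest probes gave -0.19 (adjusted p = 0.331) and -0.20 (adjusted p = 0.323), so the gene counts leave them out. No probe of NDUFB6 or NDUFV3 passed.

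**Figure D5:**
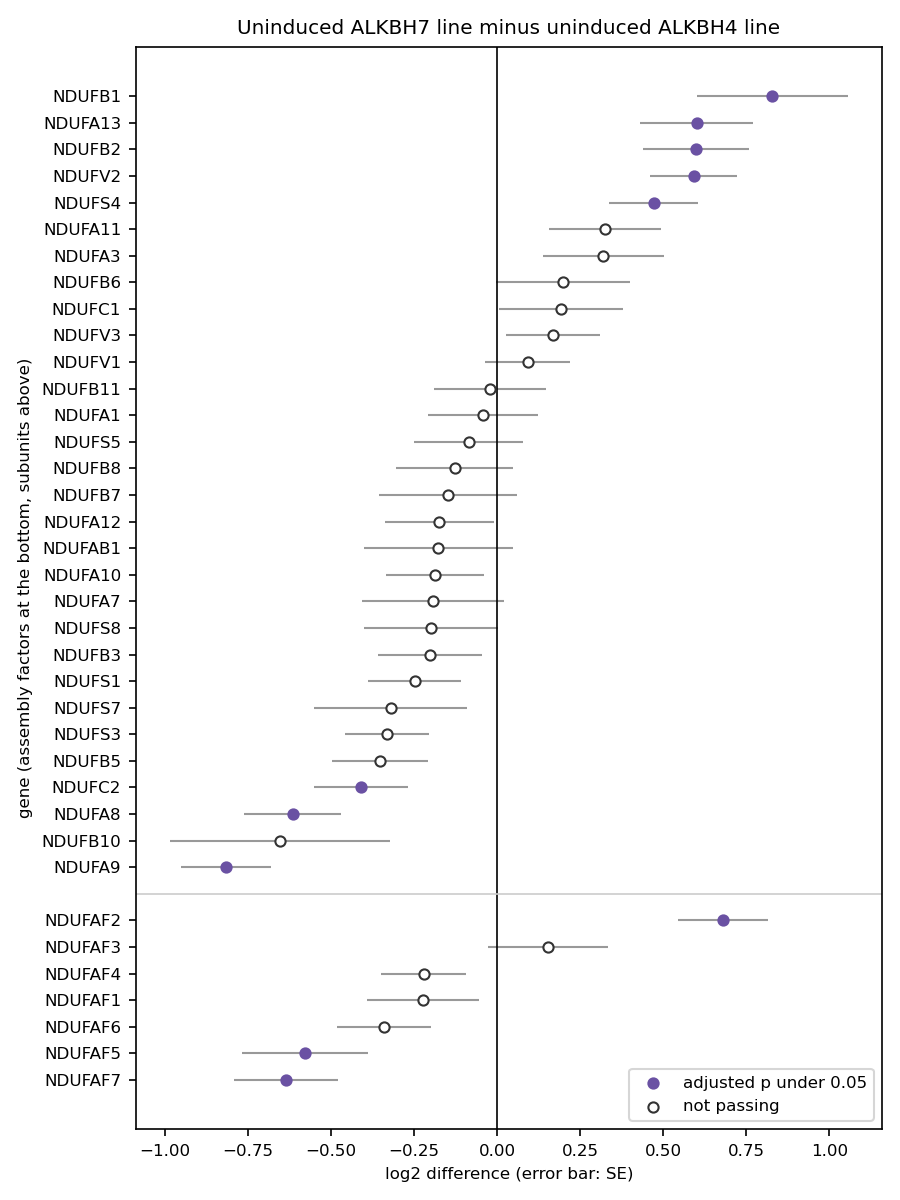
Log2 difference with its SE (x axis) between the uninduced ALKBH7 line and the uninduced ALKBH4 line for the 37 tested complex I genes, subunits above and assembly factors below, filled where the limma adjusted p was under 0.05. NDUFB1 at 0.83 and NDUFA9 at -0.82 were the outermost, and 6 genes passed above 0 and 5 below.

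For this comparison too uninduced replicate 1 of the ALKBH7 line moved counts. Without it 10 subunits were lower (19.7% of all genes). With it as the only uninduced ALKBH7 array the subunit median turned to 0.27. Leaving out uninduced replicate 1 of the ALKBH4 line left 2 subunits higher (16.1%). Under median scaling 0 subunits and 0 assembly factors were higher (2.56%).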

How the data were processed

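Total RNA of the 12 samples was hybridized to Illumina HumanWG-6 v3 arrays. The authors took the bead intensity of each probe from GenomeStudio without normalization, with a detection p-value for every probe and array, and deposited both. The deposited series table holds intensity values quantile normalized by the authors in J-Express, line by line as its distributions show, and served here as an alternative.

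For the results above, the unnormalized intensities were quantile normalized over the 12 arrays without background correction, and log2 was taken. With limma 3.58.1 (R 4.3.3) a mean for each of the 4 groups was estimated at all 15444 tested probes. At each probe the 4 groups shared a spread, from which every SE and p was taken. The Benjamini-Hochberg adjustment ran over all these probes, and 0.05 was the threshold. Each gene, among the members as among all 10159, was read at its tested probe with the highest mean. Groups came from the sample titles, and 0 sample columns had no group. In the annotation 27578 probes had 1 symbol, 13 several and 21212 none. The procedure was tested on simulated data.

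Values in every array were given for the subunits with the 5 highest and 5 lowest changes past the threshold in the ALKBH7 line, for all assembly factors, for the 2 outermost genes each way by moderated t in the ALKBH4 line and for the 3 outermost each way between the lines, and all tested probes of a gene were named. NDUFC1 and the further probes of NDUFB3 and NDUFA10 were added to these. The members, gene lists and motifs were chosen with earlier results of these data known. Protein sequences were not used here.

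Alternative settings were a normexp background correction (offset 50), scaling by the median, cyclic loess, no filter or a filter on all 12 arrays, the values normalized by the authors, separate fits for the lines, a block on the replicate number, a trended and robust eBayes, 16 added to intensities, probe means per gene, an adjusted p of 0.01, rank product as in the methods of the study (100 permutations, q under 5 percent, fold above 1.35 in the ALKBH4 and 2 in the ALKBH7 line), leaving out each array, and leaving out uninduced arrays 2 and 3 of the ALKBH7 line together. Figures were drawn with Python 3.11.15 and matplotlib 3.10.9.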

Additional observations from a re-analysis of the deposited data

How the results depend on the processing

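Counts below are of complex I genes at a limma adjusted p under 0.05, values are log2, and the cause of each change was not tested except where fewer arrays, a stricter threshold or a fold limit make it.

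For the ALKBH7 induction 9 subunits were higher and 2 lower, beside 12.4% and 10.4% of all genes, with a median of 0.32. Median scaling gave 0 higher and 0 lower, beside 0.00984% and 0%, and a median of 0.68. Each line alone gave 2 higher and 0 lower, beside 6.11% and 4.24%. An adjusted p of 0.01 gave 2 higher and 0 lower, beside 3.78% and 3.48%. Rank product gave 1 higher and 0 lower, beside 0.945% and 0.482%. The values of the authors and the mean of probes per gene each gave 1 lower, beside 7.99% and 10.1%. Uninduced replicate 1 as the only control gave a median of -0.0098. Leaving out 1 array gave 2 to 17 subunits higher and 0 to 2 lower, beside 3.78% to 23.8% and 3.41% to 20.3%. The subunit median was then 0.21 to 0.45, the assembly factor median 0.14 to 0.30, and 0 to 2 assembly factors were higher. For the ALKBH4 induction, median scaling gave medians of 0.35 for subunits and 0.49 for assembly factors, and leaving out 1 array gave -0.05 to 0.04 and -0.0156 to 0.20. For the difference between the inductions leaving out 1 array gave 0 to 10 subunits higher, beside 0.00987% to 10.2% of all genes.

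Between the uninduced lines 5 subunits were higher and 3 lower (21.7% and 17% of all genes), with a median of -0.14. Of the assembly factors 1 was higher and 2 lower, with a median of -0.22. Median scaling gave 0 subunits and 0 assembly factors higher (2.56%), 0 assembly factors lower (6.85%) and medians of -0.70 and -0.53. The mean of probes gave 5 subunits lower (18.8%) and an assembly factor median of -0.34. An adjusted p of 0.01 gave 1 subunit higher (13.5%) and 1 assembly factor lower (8.4%). With uninduced replicate 1 as the only ALKBH7 control the medians were 0.27 for subunits and -0.39 for assembly factors. Leaving out 1 array gave 2 to 6 subunits higher (16.1% to 23.1%) and 2 to 10 lower (11.9% to 19.7%). It also gave 1 to 3 assembly factors lower, a subunit median of -0.24 to -0.0026 and an assembly factor median of -0.32 to -0.18. The values of the authors were not run here, since they were normalized within each line. Median scaling moved the median of all tested probes by 0.28 in the ALKBH4 induction, 0.07 in the ALKBH7 induction, -0.21 in their difference and -0.24 between the lines. Relative to these shifts the subunit medians under it were 0.07 in the ALKBH4 induction, 0.61 in the ALKBH7 induction and -0.47 between the lines.

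Single genes changed sign in the ALKBH7 induction with uninduced replicate 1 as the only control, where NDUFAF1 stood at 0.0399, NDUFAF3 at -0.0308, NDUFS7 at -0.22, NDUFS8 at -0.23, NDUFA12 at -0.20, NDUFA9 at -0.0108, NDUFS4 at -0.19, NDUFA10 at -0.017, NDUFA13 at -0.36, NDUFA3 at -0.008, NDUFB1 at -0.12, NDUFB11 at -0.21, NDUFB2 at -0.14, NDUFB7 at -0.18 and NDUFC2 at -0.0087. They also did with the mean of probes (NDUFAF7 at -0.0308, NDUFA10 at -0.20), cyclic loess (NDUFA9 at -0.0807) and median scaling (NDUFA11 at 0.0661, NDUFB5 at 0.25). Under median scaling NDUFB11 (0.0561) and NDUFV1 (0.17) turned in the ALKBH4 induction, and NDUFV2 (-0.0361), NDUFS4 (-0.13) and NDUFB2 (-0.0616) between the lines. Leaving out 1 array gave -0.0375 to 0.23 for NDUFAF7, -0.11 to 0.0783 for NDUFA9, -0.0732 to 0.15 for NDUFS4, -0.0496 to 0.29 for NDUFA13 and -0.0891 to 0.15 for NDUFC2 in the ALKBH7 induction.

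Same-numbered arrays did not deviate together in every pair (r of -0.13, 0.26 and 0.11 in the ALKBH4 line and 0.41, -0.12 and 0.17 in the ALKBH7 line). Deviations from a mean of 3 arrays cannot settle whether the numbers pair samples, and the main fit paired none. With the replicate number as a block 10 subunits were higher and 2 lower in the ALKBH7 induction, beside 13% and 11% of all genes. Members had 0 calls in the ALKBH4 induction, beside 0% of all genes. In the difference they had 0 as well, beside 0.0295% higher and 0.0197% lower. With 3 arrays per group small changes could not be detected. Signal near background limits NDUFS1, NDUFC2 and the dimmer probes of NDUFAF3, NDUFAF4, NDUFAF7 and NDUFV3.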
